A study of Homo sapiens with 4 samples.

Results

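Matricellular and mesenchymal-type matrix genes were followed in HaCaT, an immortalised line of human epidermal keratinocytes, in which TCN1 was overexpressed from a lentivirus. TCN1 encodes the secreted vitamin B12-binding protein haptocorrin. The group holds 9 genes, picked by name out of the 29209 genes in the deposited tables: THBS1, FN1, TNC, CDH2, F3, CCN1, CCN2, TGFBI and CCDC80. They were chosen with their TCN1_OE against NC values already known, so their differences between the groups are given as a description, without a test of their own.

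There were 2 libraries of the TCN1 overexpression line (TCN1_OE) and 2 of the negative control line (NC), all of polyA RNA from whole HaCaT cultures, lysed in the plate after 48 hours, counted from a step that the labels do not name. The labels do not name the vector of the NC line, the promoter that drives TCN1, or whether the transduced cells were cloned, and nothing in them tells whether replicate libraries stem from separate cultures. Library totals ran from 11593377 to 19973550 counts, and TCN1 had 1700 and 1253 counts in TCN1_OE, against 50 and 17 counts in NC. All 10 keratinocyte markers examined averaged at least 1 FPKM (fragments per kilobase of gene, scaled to the library total), led by KRT14 at 3109 and 3569 FPKM in TCN1_OE and 3097 and 3403 FPKM in NC. Of 10 fibroblast markers, 6 were listed and COL1A1 alone averaged 1 FPKM or more, with a summed level of 1.90 and 2.11 FPKM in TCN1_OE and 1.92 and 2.15 FPKM in NC; DCN stayed at or under 0.0157 FPKM in every library. In bulk RNA of this kind, fewer cells of a type and less RNA per cell cannot be told apart.

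Matricellular proteins are secreted into the extracellular matrix, where they act on cell adhesion and growth factor signalling more than on mechanical strength. Keratinocytes make several of them, together with fibronectin, when they migrate over a wound, and the same genes are widely used as readouts of TGF-beta, AP-1 and YAP/TAZ activity. CCN1, CCN2, F3 and CCDC80 all stand in a published list of YAP/TAZ target genes, YAP and TAZ being cofactors that act through the DNA-binding TEAD proteins. N-cadherin, encoded by CDH2, and fibronectin are textbook markers of epithelial-to-mesenchymal transition, and F3 encodes tissue factor, the membrane receptor that starts the extrinsic clotting cascade.

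The 9 genes lie on 8 chromosomes, and RefSeq (GRCh38.p14) gave promoter windows for 8 of them, all except CCN1. The 250 bases before the annotated start are shown for the gene that stood higher in TCN1_OE (CCDC80), for the 3 set against it (THBS1, FN1 and F3) and for CCN2, whose promoter is the classic TEAD-bound one. Each reads 5′ to 3′ on the strand of its gene, and capitals mark every match, on either strand, to the letters TGAGTCA (AP-1), GGAATG (TEAD), CAGACA (SMAD), CAGGTG (SNAI/ZEB E-box), GGGCGG (SP1) or, for the TATA box, TATAAA.
CCDC80, chr3:112641144-112641393, minus strand: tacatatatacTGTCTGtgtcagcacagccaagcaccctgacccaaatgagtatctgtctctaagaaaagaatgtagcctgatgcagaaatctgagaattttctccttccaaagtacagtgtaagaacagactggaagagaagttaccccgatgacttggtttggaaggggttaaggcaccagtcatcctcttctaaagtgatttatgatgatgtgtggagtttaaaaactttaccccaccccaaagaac
THBS1, chr15:39580829-39581078, plus strand: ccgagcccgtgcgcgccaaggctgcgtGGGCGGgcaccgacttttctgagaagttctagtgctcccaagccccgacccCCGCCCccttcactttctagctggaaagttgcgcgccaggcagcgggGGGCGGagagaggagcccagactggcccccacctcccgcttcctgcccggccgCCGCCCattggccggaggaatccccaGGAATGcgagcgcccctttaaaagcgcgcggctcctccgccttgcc
FN1, chr2:215436069-215436318, minus strand: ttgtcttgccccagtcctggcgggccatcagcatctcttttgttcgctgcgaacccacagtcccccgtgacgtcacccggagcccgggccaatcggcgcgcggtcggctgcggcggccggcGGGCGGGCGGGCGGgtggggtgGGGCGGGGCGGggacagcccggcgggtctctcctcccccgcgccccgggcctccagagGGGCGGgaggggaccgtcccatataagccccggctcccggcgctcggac
F3, chr1:94541760-94542009, minus strand: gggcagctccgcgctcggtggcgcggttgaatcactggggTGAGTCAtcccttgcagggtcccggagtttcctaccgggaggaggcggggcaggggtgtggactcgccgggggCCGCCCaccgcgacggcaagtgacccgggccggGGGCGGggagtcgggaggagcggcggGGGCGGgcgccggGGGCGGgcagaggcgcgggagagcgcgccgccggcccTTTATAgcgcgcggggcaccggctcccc
CCN2, chr6:131951373-131951622, minus strand: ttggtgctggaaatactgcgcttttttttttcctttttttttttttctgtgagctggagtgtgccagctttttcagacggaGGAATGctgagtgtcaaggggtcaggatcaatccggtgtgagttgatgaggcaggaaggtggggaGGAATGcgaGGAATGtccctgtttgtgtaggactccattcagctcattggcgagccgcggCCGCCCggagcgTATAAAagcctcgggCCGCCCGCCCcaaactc

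The CCN2 window held 3 copies of the TEAD letters, the first bases of which lie 169, 104 and 95 bases before the start, and the THBS1 window held 1 copy, 46 bases before the start. Over 34796 RefSeq windows of the same length, 11.9% held the TEAD letters at least once. The AP-1 letters, found in 4.21% of all windows, were present once in the F3 window, 210 bases before the start. In the CCDC80 window the only match was the SMAD letters on the opposite strand, 239 bases before the start. The same letters occurred once in the TNC window and once in a CDH2 window, and 13.6% of all windows hold them. The FN1 window held 6 matches to the SP1 letters, 5 of which overlap another, and these letters occur in 42.6% of all windows. The THBS1 and F3 windows held 4 SP1 matches each and the CCN2 and TGFBI windows 3 each. The TNC window and a CDH2 window held 1 each. The E-box letters, in 17.5% of all windows, occur in none of the windows of the 8 genes. A match or its absence describes the letters of these windows only. RefSeq starts CCDC80 at the base after its window, while the GENCODE 29 gene reaches upstream to 112649530, so other CCDC80 promoters lie outside the window.

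Of the 9 genes, 8 had enough counts for the fit over all genes, CCN2 being the exception. By edgeR with an adjusted p under 0.05, 3 of the 8 were called lower in TCN1_OE (THBS1, FN1 and F3) and 1 higher (CCDC80). Over all 15113 genes tested, 0.496% were called, 0.212% lower and 0.285% higher; since the genes were picked from this comparison, nothing is read from the members' share. FN1 and F3 were no longer called once genes averaging under 1 FPKM were left out of the fit, and limma on log2 FPKM called 0 of the 7 it tested, CDH2 and CCN2 being below its minimum level. The FPKM of the groups did not overlap for 6 genes that were lower in TCN1_OE and 1 that was higher, where 42.7% of all tested genes had groups that did not overlap, 21% with TCN1_OE lower and 21.7% with TCN1_OE higher. The median log2 fold change (TCN1_OE over NC) of the 8 genes was -0.58, beside 0.002 over all genes tested, and nothing is read from it for the same reason.

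**Figure D1:**
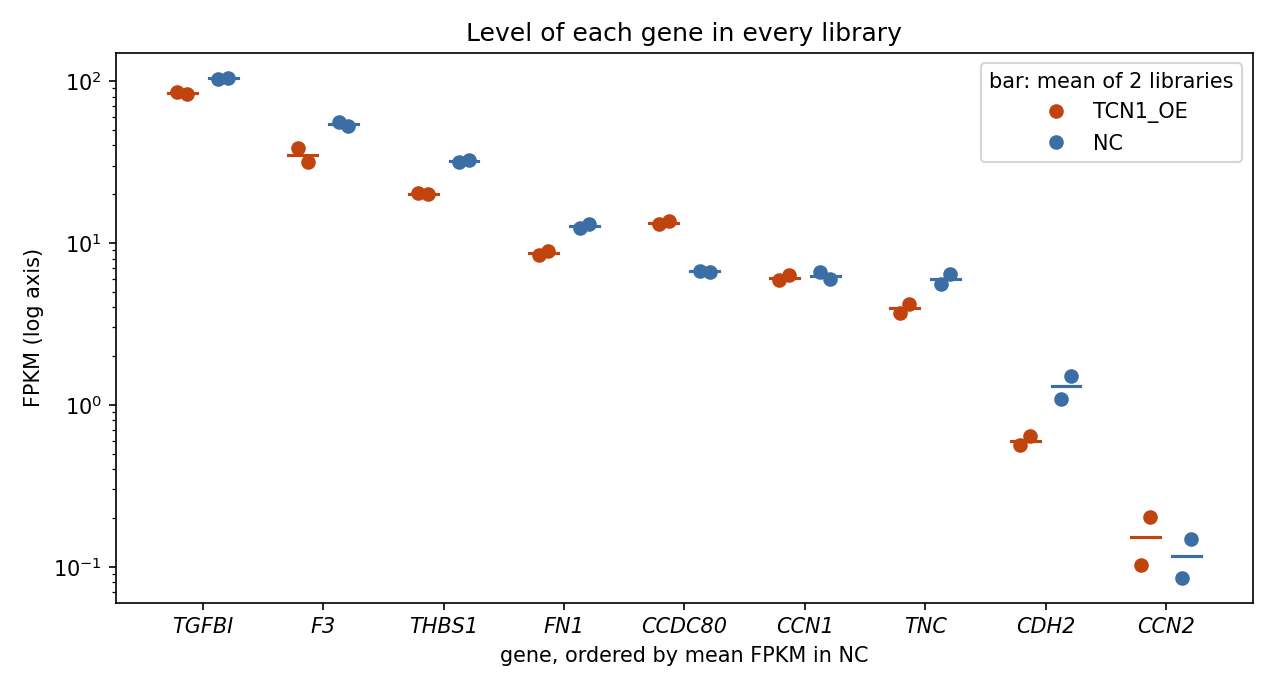
FPKM of the 9 genes (log axis) in the 2 TCN1_OE libraries (orange, left of each pair) and the 2 NC libraries (blue), ordered by mean FPKM in NC, with a bar at each mean. CCDC80 is the gene with both TCN1_OE points above both NC points, at 13.0 and 13.6 FPKM against 6.68 and 6.64 FPKM, while CCN1 and CCN2 have overlapping points.

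Thrombospondin-1 had the highest FPKM of the 4 matricellular members (THBS1, TNC, CCN1 and CCN2) and was lower in TCN1_OE. THBS1 (ENSG00000137801, chr15:39581079-39599466 of GRCh38, plus strand), an adhesive glycoprotein that binds CD47 and activates latent TGF-beta, had 3069 and 2709 counts in TCN1_OE and 5771 and 3434 counts in NC. These correspond to 20.2 and 20.0 FPKM in TCN1_OE and 31.5 and 32.3 FPKM in NC. The 2 libraries of a group differed by at most 0.794 FPKM and the groups were 11.3 FPKM apart at their nearest points. The log2 fold change was -0.67 ± 0.08 (SE), 0.628 times the NC level. In the GENCODE 29 annotation, 7.58% of the exonic bases of THBS1 lie under FSIP1 or AC037198.2, and reads from those bases cannot be assigned to a gene by a kit that does not mark strand.

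TNC (ENSG00000041982, chr9:115019578-115118257, minus strand) encodes tenascin-C, a matrix glycoprotein that modulates adhesion to fibronectin and appears at wound edges. Its levels were 3.70 and 4.18 FPKM in TCN1_OE and 5.54 and 6.43 FPKM in NC. Both TCN1_OE libraries lay under both NC libraries, by 1.36 FPKM at the nearest points, a gap not much wider than the 0.892 FPKM between the NC libraries. The log2 fold change was -0.61 ± 0.13 (SE), without passing the threshold over all genes.

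The groups overlapped for both CCN genes among the 9. CCN1 (ENSG00000142871, chr1:85580761-85583962, plus strand), an integrin ligand and immediate early gene, stood at 5.85 and 6.29 FPKM in TCN1_OE and at 6.58 and 5.97 FPKM in NC. The log2 fold change was -0.05 ± 0.14 (SE), with its sign turning to 0.005 without TCN1_OE replicate 1 and to 0.01 without NC replicate 1. CCN2 (ENSG00000118523, chr6:131948176-131951373, minus strand), connective tissue growth factor, had 4 and 7 counts in TCN1_OE and 4 and 4 counts in NC. That is 0.103 and 0.203 FPKM in TCN1_OE and 0.0857 and 0.148 FPKM in NC, where 3 counts in the smallest library correspond to 0.111 FPKM. The summed counts of 11 in TCN1_OE and 8 in NC give a ratio of 1.38 after scaling to the library totals, with a 95% exact interval from 0.507 to 3.97 that covers counting error only and also holds the folds of THBS1 and TNC, so neither a difference nor its absence was detectable from these counts. In GENCODE 29, 8.34% of its exonic bases lie under AL133346.1, and the overlap in the annotation used for the counts was not measured, so few counts here do not show that the transcript was scarce.

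Of the structural and adhesion proteins of the matrix, fibronectin and TGFBI were both lower in TCN1_OE. FN1 (ENSG00000115414, chr2:215360440-215436172, minus strand) encodes fibronectin, the fibrillar scaffold that integrin receptors assemble on the cell surface. It stood at 8.45 and 8.93 FPKM in TCN1_OE, from 2412 and 2268 counts, and at 12.3 and 13.2 FPKM in NC, from 4220 and 2626 counts. The gap between the groups was 3.34 FPKM, against at most 0.885 FPKM within a group, and the log2 fold change was -0.55 ± 0.09 (SE).

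TGFBI (ENSG00000120708, chr5:136028895-136063818, plus strand), a TGF-beta-induced adhesion protein that links collagen to integrins, was the most abundant of the 9 genes. It had 85.4 and 83.5 FPKM in TCN1_OE and 103.1 and 104.2 FPKM in NC. The groups were 17.7 FPKM apart with at most 1.87 FPKM between libraries of a group, yet the log2 fold change was small, -0.30 ± 0.08 (SE), and did not pass over all genes. TGFBI alone made up between 48.4% and 49.5% of the counts of the 9 genes in every library. Without it, the summed level of the other 8 was 90.1 and 85.6 FPKM in TCN1_OE and 119.2 and 119.0 FPKM in NC.

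Of the 2 membrane proteins in the group, tissue factor was abundant and N-cadherin scarce. F3 (ENSG00000117525, chr1:94529225-94541800, minus strand) stood at 38.3 and 31.7 FPKM in TCN1_OE and at 55.4 and 52.8 FPKM in NC. The TCN1_OE libraries differed from each other by 6.60 FPKM, and the groups by 14.5 FPKM at their nearest points. The log2 fold change was -0.63 ± 0.11 (SE), or 0.644 times the NC level. CDH2 (ENSG00000170558, chr18:27950966-28177446, minus strand) had 80 and 81 counts in TCN1_OE and 187 and 150 counts in NC, or 0.562 and 0.640 FPKM in TCN1_OE and 1.09 and 1.51 FPKM in NC. Its log2 fold change of -1.11 ± 0.23 (SE) was the largest of the 8 tested in size and the least precise, and it did not pass over all genes.

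CCDC80 (ENSG00000091986, chr3:112596794-112649530, minus strand), a secreted protein that binds matrix components, ran the other way. It had 2817 and 2629 counts in TCN1_OE and 1743 and 1006 counts in NC, which are 13.0 and 13.6 FPKM in TCN1_OE and 6.68 and 6.64 FPKM in NC. Both TCN1_OE libraries lay 6.32 FPKM or more above both NC libraries, with at most 0.637 FPKM between libraries of a group. The log2 fold change was 1.00 ± 0.09 (SE), a 1.99-fold higher level. None of its exonic bases, nor any of FN1, F3, CCN1 and TGFBI, lies under another gene in GENCODE 29.

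Ratios taken within a library set CCDC80 against the 3 called genes that were lower without depending on library size. The FPKM ratio of CCDC80 to THBS1 was 0.643 and 0.680 in TCN1_OE, against 0.212 and 0.205 in NC. To FN1 it was 1.54 and 1.53 in TCN1_OE, against 0.544 and 0.505 in NC, so CCDC80 stood above fibronectin in both TCN1_OE libraries and under it in both NC libraries. To F3 it was 0.340 and 0.431 in TCN1_OE, against 0.120 and 0.126 in NC. On the log2 scale the mean ratio was higher in TCN1_OE by 1.67 for THBS1, 1.55 for FN1 and 1.64 for F3, which are 3.17-fold, 2.93-fold and 3.11-fold. The SD of the log2 ratio between the 2 libraries of a group was at most 0.24, for F3 in TCN1_OE, and at most 0.08 for the other pairs.

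**Figure D2:**
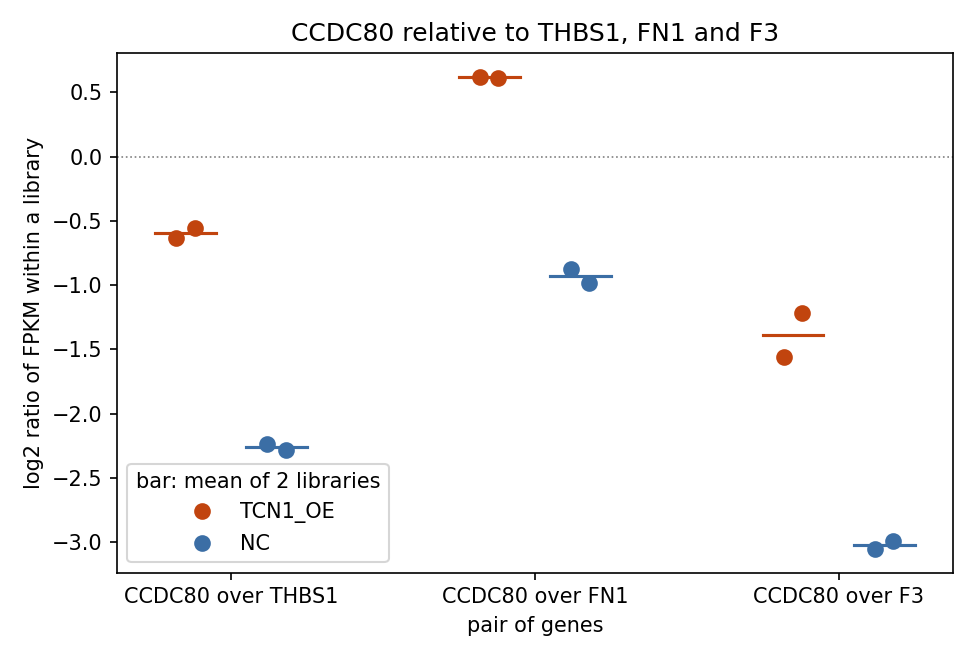
Log2 ratio of CCDC80 FPKM to that of THBS1, FN1 and F3 within each library, for TCN1_OE (orange, left) and NC (blue), with a bar at each mean and a dotted line where both genes are at the same level. The ratio to FN1 lies above the line in TCN1_OE, with a mean of 0.62, and below it in NC, with a mean of -0.93.

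By mean FPKM the order in TCN1_OE was TGFBI, F3, THBS1, CCDC80, FN1, CCN1, TNC, CDH2 and CCN2, and no neighbours in it had overlapping libraries. In NC the order was the same except that FN1 preceded CCDC80. There CCDC80 at 6.66 ± 0.03 FPKM, CCN1 at 6.28 ± 0.43 FPKM and TNC at 5.99 ± 0.63 FPKM (mean ± SD, n = 2) were close. The NC libraries of CCN1 and TNC overlapped, and those of CCDC80 lay just above both. In total the 9 genes took 1332 and 1321 counts per 1e+06 in TCN1_OE, against 1630 and 1663 counts per 1e+06 in NC.

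Likeness of pattern was measured as the Euclidean distance between centred log2(FPKM + 0.5) values over the 4 libraries, among 6604 other genes that averaged 5 FPKM or more. The nearest to THBS1 were ODC1, an enzyme of polyamine synthesis, NEFL, a neurofilament subunit, and DDIAS, a damage-induced apoptosis suppressor, at distances of 0.057, 0.078 and 0.081. FN1 was number 18 and F3 number 50 in that order, TGFBI number 293, CCN1 number 2824 and CCDC80 number 6588. TNC, CDH2 and CCN2 averaged under 5 FPKM and were not ranked. Nearest to CCDC80 were the histone gene H2BC21, the PI3 kinase inhibitor PIK3IP1 and the BH3-only gene BMF, at 0.095, 0.099 and 0.114. CCDC80 was among the genes farthest from THBS1 in these 4 libraries. The members were picked from the same libraries, so their ranks were shaped by that choice and nothing is read from them.

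Around these 9 genes, 8 lists of related genes were examined, with 194 different genes listed in the files besides the members and 159 of them tested. By edgeR over all genes, 1 of the 159 was called higher and 0 lower, or 0.629% against the 0.496% of all genes; 17 were higher and 16 lower at an unadjusted p under 0.05, as were 6% and 6.81% of all genes. The median log2 fold change of the 159 genes was 0.02. Limma called 1 gene higher and 0 lower over all the genes it tested, so its 0 in each list below says nothing about that list. The lists share some genes, and their composition was set with results of this comparison known.

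**Figure D3:**
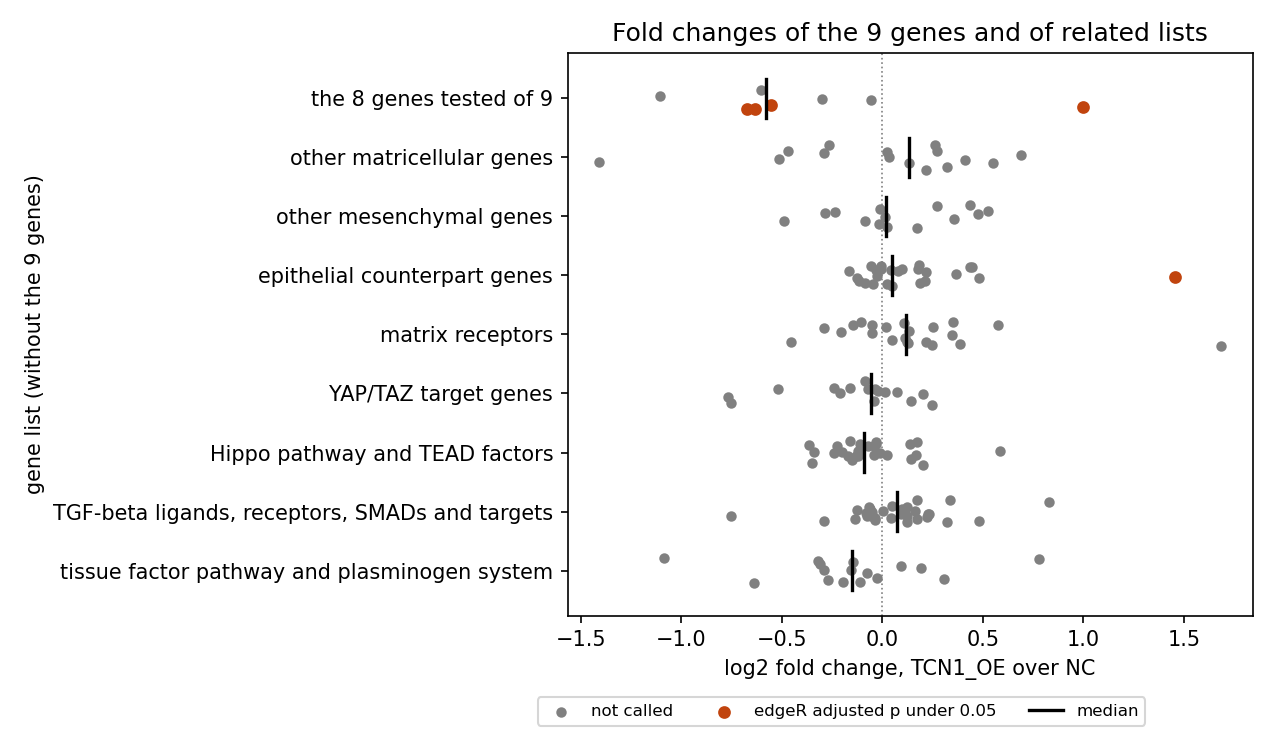
Log2 fold change (TCN1_OE over NC) of the 8 tested members in the top row and of the tested genes of 8 related lists below, members left out; orange points passed edgeR at an adjusted p under 0.05, grey points did not, and black bars are medians. The member row has a median of -0.58, and the medians of the lists lie between -0.15 and 0.13. The members were picked from this comparison, so nothing is read from the distance between them and the lists.

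Other matricellular genes showed no common direction. Of 15 tested, the log2 fold change was positive in 10 and negative in 5, its median 0.13, and edgeR called 0, against 2 higher and 4 lower at an unadjusted p under 0.05; DESeq2 called 1 higher and limma 0. The 4 with the smallest adjusted p were MFAP5, a microfibril protein, at -1.41 ± 0.34, ECM1, a glycoprotein of the epidermal matrix, at 0.55 ± 0.13, EFEMP1, a fibulin, at -0.29 ± 0.09, and LGALS3, galectin-3, at 0.26 ± 0.09 (log2 fold change ± SE). MFAP5 stood at 0.279 and 0.349 FPKM in TCN1_OE and 0.785 and 0.887 FPKM in NC, and ECM1 at 16.7 and 18.8 FPKM in TCN1_OE and 11.01 and 13.22 FPKM in NC. Some relatives of the members in this list were named after their values were seen. CCN3 had 2.26 and 2.15 FPKM in TCN1_OE and 3.01 and 3.10 FPKM in NC. THBS3 went the other way, with 2.67 and 2.93 FPKM in TCN1_OE and 1.93 and 2.29 FPKM in NC. POSTN and CCN4 had 1 count in TCN1_OE replicate 1 and 0 in the other libraries.

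Of 14 tested mesenchymal genes besides the members, 8 were positive and 6 negative, with a median of 0.02. EdgeR, DESeq2 and limma called 0 of them, and 1 was higher and 0 lower at an unadjusted p under 0.05. The smallest adjusted p belonged to S100A4, a calcium-binding protein of motile cells, at 0.27 ± 0.12, the fibrillin FBN2 at -0.23 ± 0.11, the actin-binding TAGLN at 0.48 ± 0.25 and the collagen COL6A1 at 0.36 ± 0.19. Vimentin, chosen after its values were seen, had 1 count in NC replicate 2 and 0 in the other libraries; 24.4% of the exonic bases of VIM lie under another gene in GENCODE 29. Whether the counting assigned its reads elsewhere or dropped them was not tested, so these counts do not show that vimentin RNA was absent. The transcription factors SNAI2 and ZEB1 are also outside the naming rule. SNAI2 stood at 15.2 and 16.6 FPKM in TCN1_OE and 17.04 and 16.67 FPKM in NC, while ZEB1 had at most 0.047 FPKM in any library.

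On the epithelial side, 25 genes were tested, 15 positive and 10 negative, with a median of 0.05. The tight junction scaffold TJP1 rose, from a low level: 1.59 and 1.32 FPKM in TCN1_OE, against 0.646 and 0.389 FPKM in NC, a log2 fold change of 1.46 ± 0.24 with an edgeR adjusted p of 0.0431. Without adjustment, 4 were higher and 0 lower at a p under 0.05; DESeq2 called 2 higher and limma 0. TJP1 averaged under 1 FPKM and so was not in the fits limited to genes above that level. E-cadherin CDH1, the epithelial counterpart of CDH2, stood at 66.9 and 70.0 FPKM in TCN1_OE and 67.9 and 69.5 FPKM in NC, with a log2 fold change of -0.01 ± 0.08. Placental cadherin CDH3 likewise overlapped, at 70.2 and 81.0 FPKM in TCN1_OE and 73.3 and 80.7 FPKM in NC. Both were named after their values were seen.

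Among the receptors of these matrix proteins, 22 were tested, 15 with a positive and 7 with a negative log2 fold change and a median of 0.12. EdgeR, DESeq2 and limma called 0 of them, and 3 were higher and 1 lower at an unadjusted p under 0.05. The integrin chains ITGB6, ITGB8 and ITGA4 stood at 0.35 ± 0.10, 0.25 ± 0.09 and -0.45 ± 0.15, and PTPRZ1, a phosphatase that binds tenascins, at 0.35 ± 0.10. For the fibronectin receptor, named after its values were seen, the alpha chain ITGA5 stood at 1.84 and 2.16 FPKM in TCN1_OE and 2.42 and 2.44 FPKM in NC, and the beta chain ITGB1 at 27.6 and 24.2 FPKM in TCN1_OE and 28.9 and 26.7 FPKM in NC. The thrombospondin receptor CD47, also outside the naming rule, overlapped between the groups, at 27.4 and 22.8 FPKM in TCN1_OE and 25.7 and 23.8 FPKM in NC.

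The published list of YAP/TAZ targets holds 4 members, CCN1, CCN2, F3 and CCDC80, and 18 other genes. Of 16 others tested, 5 were positive and 11 negative, with a median of -0.06; edgeR and limma called 0 and DESeq2 1 lower, while 1 was higher and 3 lower at an unadjusted p under 0.05. FJX1, a secreted protein, stood at 4.31 and 4.48 FPKM in TCN1_OE and 6.72 and 8.25 FPKM in NC, a log2 fold change of -0.77 ± 0.18. The ectonucleotidase NT5E stood at -0.52 ± 0.16, the guanine nucleotide exchange factor DOCK5 at -0.21 ± 0.09 and the IGF-binding protein IGFBP3 at 0.25 ± 0.08. ANKRD1, a widely used target named after its values were seen, had 2 and 0 counts in TCN1_OE and 7 and 5 counts in NC.

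**Figure D4:**
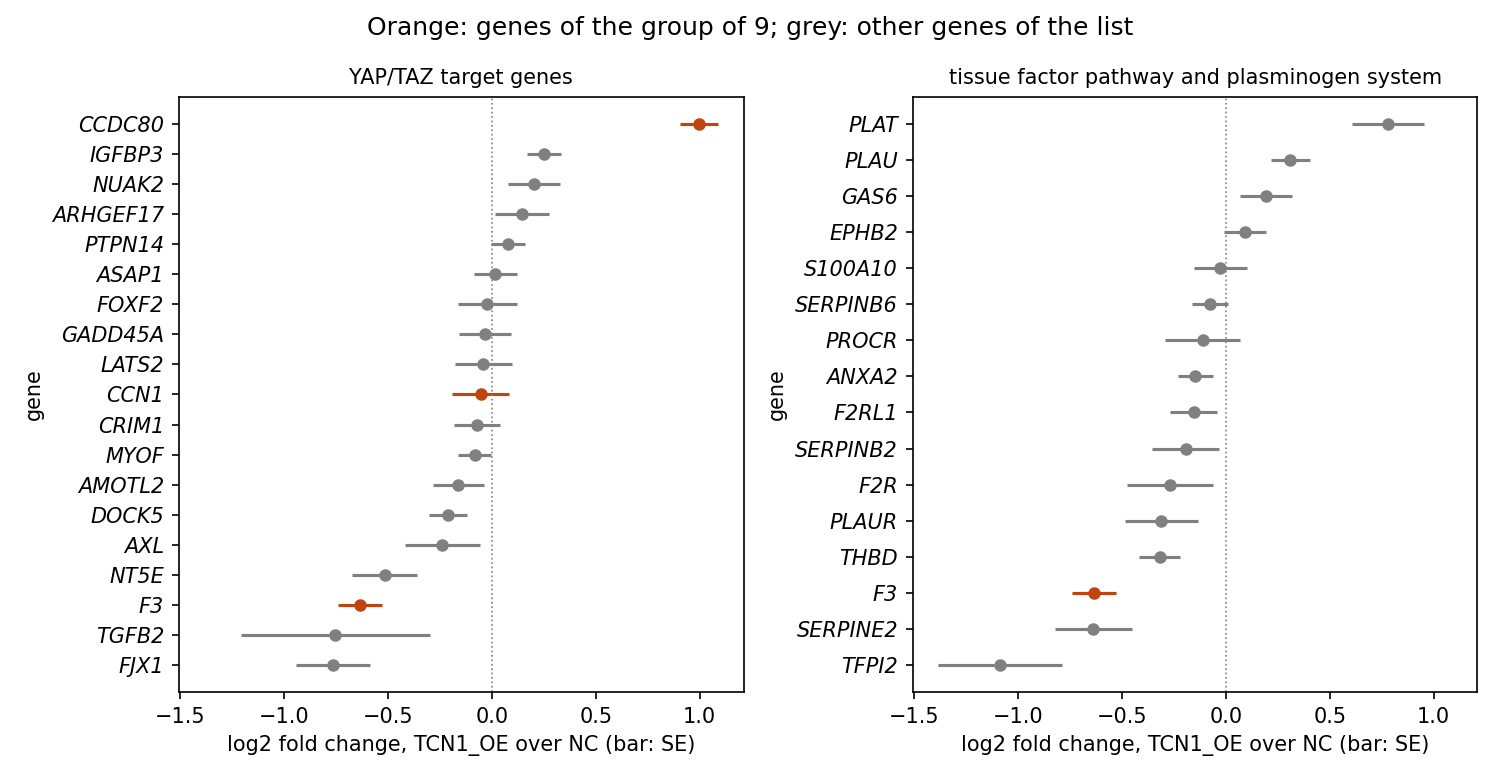
Log2 fold change (TCN1_OE over NC) with its SE for the tested genes of the YAP/TAZ target list (left) and of the tissue factor and plasminogen list (right), each sorted by value and without a gene not reported here. Members of the group of 9 are orange: CCDC80 tops the left panel at 1.00, CCN1 lies near 0 and F3 is at -0.63 in both panels.

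Components of the Hippo pathway and its TEAD factors were mostly under 0, with 7 of 26 positive and 19 negative and a median of -0.09, beside 49.7% negative over all genes. EdgeR, DESeq2 and limma called 0, and 1 was higher and 4 lower at an unadjusted p under 0.05. The scaffold AMOT stood at 3.52 and 3.52 FPKM in TCN1_OE and 2.36 and 2.32 FPKM in NC (0.59 ± 0.13), TEAD1 at -0.36 ± 0.09, the LATS activator WWC2 at -0.35 ± 0.12 and TEAD4 at -0.34 ± 0.13. The cofactor YAP1 itself, named after its values were seen, had 39.4 and 41.6 FPKM in TCN1_OE and 40.7 and 40.8 FPKM in NC.

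In the TGF-beta list, 30 genes besides TGFBI were tested, 18 positive and 12 negative with a median of 0.07. EdgeR, DESeq2 and limma called 0, with 3 higher and 1 lower at an unadjusted p under 0.05. The smallest adjusted p belonged to the cell cycle inhibitor CDKN2B at 0.34 ± 0.11, the adhesion scaffold NEDD9 at 0.48 ± 0.17 and the co-receptor ENG at 0.83 ± 0.30, among the genes reported. The inhibitory SMAD7, chosen after its values were seen, overlapped between the groups at 11.96 and 14.46 FPKM in TCN1_OE and 10.9 and 13.9 FPKM in NC.

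The tissue factor and plasminogen list gave 16 tested genes besides F3, 4 positive and 12 negative with a median of -0.15. EdgeR and limma called 0 and DESeq2 1 higher, while 2 were higher and 4 lower at an unadjusted p under 0.05. The plasminogen activators PLAT and PLAU stood at 0.78 ± 0.17 and 0.31 ± 0.09, with PLAU at 36.3 and 36.9 FPKM in TCN1_OE and 29.8 and 29.1 FPKM in NC. On the inhibitor side, TFPI2 stood at -1.09 ± 0.30 and SERPINE2, a serpin of thrombin and plasminogen activators, at -0.64 ± 0.19. The clotting factor F7, ligand of tissue factor, and the inhibitor TFPI, both chosen after their values were seen, had at most 2 counts in any library.

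Markers of other cell types stayed low in both groups, with 1 set apart. The smooth muscle and pericyte list, of which 4 of 6 were listed, summed to 14.1 and 18.7 FPKM in TCN1_OE and 9.95 and 12.9 FPKM in NC, of which NOTCH3, also a keratinocyte receptor, gave 13.8 and 18.4 FPKM in TCN1_OE and 9.59 and 12.6 FPKM in NC; ACTA2 stayed at or under 0.116 FPKM. The endothelial, melanocyte and leukocyte lists summed to between 1.04 and 1.40, 2.86 and 3.06, and 2.10 and 3.04 FPKM in TCN1_OE, against 0.941 and 1.30, 2.66 and 2.69, and 2.20 and 2.55 FPKM in NC. The part of these levels in the differences of the 9 genes was not tested.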

How the data were processed

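PolyA RNA-seq libraries of 2 TCN1_OE and 2 NC samples, grouped and numbered by their titles, were analysed from the deposited gene tables. Per the labels' protocols the libraries came from a kit that does not mark strand; per the submitters' processing notes HISAT2 and HTSeq 0.13.5 were used, on GRCh38, and for the annotation release and strand setting nothing was given in the sources used. The deposited count is a whole number per gene, and the FPKM deposited by the authors follows from it: in all 94850 values above 0, count, FPKM and the summed counts gave a whole gene length within 0.001 bp. These lengths differ from GENCODE 29 for some genes (3698 against 2455 bases for CCN1, 8583 against 4950 for CDH2), so coordinates and overlaps, taken from GENCODE 29, may differ from the annotation used for counting.

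Counts were tested with edgeR 4.0.16 (R 4.3.3; quasi-likelihood, TMM, robust, group as the only term, filterByExpr with a minimum count of 10), with Benjamini-Hochberg adjustment over 15113 genes and a threshold of 0.05; a gene past it is called. The SE is the log2 fold change over the square root of F. An exact two-sided permutation test of 2 against 2 libraries has a smallest p of 0.333. The p-values reflect the spread of these 4 libraries alone, and that spread may be technical. DESeq2 1.42.0 and limma 3.58.1, on log2(FPKM + 0.5) of genes that averaged 1 FPKM or more, were alternatives, with others given in the closing section. Fits were tested on counts simulated for the 15113 genes, 200 of them changed. EdgeR recovered 54 of 63 genes changed 4-fold, 48 of 65 changed 2-fold and 25 of 67 changed 1.5-fold, with 6 false calls. DESeq2 and limma were run on the same simulated counts. Their recovery is not reported here, so the power behind the few limma calls cannot be judged from this text. This simulation was revised several times with its outcome known. The first version drew tagwise dispersions, gave more false calls and was replaced by trended ones, and the random seed was changed once for a reason unrelated to the fits. With the second seed the original criterion, over 90% of 4-fold genes recovered, was not met, and it was then narrowed to genes with a mean simulated count of 50 or more, where 48 of 48 were recovered. The members, the lists and the motifs were chosen with earlier results of these data known. Text names all members, TCN1, each list's called genes or otherwise up to 4 with the smallest adjusted p. It also names the 3 genes nearest in pattern to THBS1 and CCDC80. Other names from the related lists are said to be outside this rule or named after their values were seen. The genes named from the cell type marker lists followed no rule. One gene that this rule names is not reported here, though the counts and medians of its lists include it. Neither depth nor intervals account for duplicate reads.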

Additional observations from a re-analysis of the deposited data

How the results depend on the processing

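The number of genes called depended on the test, and the sizes of the differences less so. Against 43 higher and 32 lower genes and 1 list gene by edgeR, DESeq2 called 111, 115 and 5, upper-quartile factors gave 78 higher and 53 lower, and no filter on low counts gave 200, 275 and 9. With a minimum mean of 1 FPKM 14 were lower and 0 list genes were called, and FN1 and F3 were no longer called. Limma called 1 higher, 0 lower and 0 list genes with a pseudocount of 0.5, and the same numbers, 1, 0 and 0, with 0.1, so that no member passed; at an unadjusted p under 0.05 it gave 715 higher and 750 lower. Leaving out 1 library at a time, where the lone library of a group is assumed to vary like the other group, gave 104 to 188 higher, 106 to 142 lower and 1 to 4 list genes. The members were picked from this comparison, and each of these 4 fits reuses its libraries with 1 left in a group. Calls of members in them therefore say nothing about stability, and only sizes are given. The log2 fold change ran from -0.70 to -0.65 for THBS1, -0.61 to -0.50 for FN1 and -0.77 to -0.52 for F3. It ran from 0.95 to 1.04 for CCDC80, -1.34 to -0.86 for CDH2 and -0.72 to -0.49 for TNC.

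With the replicate block, edgeR called 1216 higher, 1655 lower and 63 list genes, TNC, CDH2 and TGFBI among the members as well. The block adds a term to a fit of the same 4 libraries, so fewer degrees of freedom are left for the spread. Across the 15113 genes tested, the deviation of replicate 1 from its group mean had a correlation of 0.15 between TCN1_OE and NC. That value pools genes of all count levels, and single genes differed. JUP had 455 and 562 FPKM in TCN1_OE and 440 and 541 FPKM in NC, higher in replicate 2 of both groups. TGFBR2 had 10.7 and 8.99 FPKM in TCN1_OE and 10.1 and 10.6 FPKM in NC, with opposite directions. How many genes shift together was not counted, so the correlation does not show that same-numbered libraries are unlinked. The SE of THBS1 was 0.038 with the block and 0.083 without it, and that of CDH2 0.197 and 0.230. The labels do not say what a number marks, so whether same-numbered libraries form pairs is not known. The part of a shared replicate effect in the added calls was not tested. Over all alternatives run, the log2 fold change of CCDC80 lay between 0.95 and 1.04, THBS1 between -0.70 and -0.65, FN1 between -0.61 and -0.50, F3 between -0.77 and -0.52, TNC between -0.72 and -0.49, CDH2 between -1.34 and -0.86 and TGFBI between -0.32 and -0.28, and the log2 ratio of CCDC80 to THBS1, FN1 or F3 between 1.47 and 1.81. The cause of the shifts in the counts was not tested. CCN2 and other genes with a few counts have wide counting intervals at this depth, and the part of read assignment in their low counts was not tested.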
